A study of Mus musculus with 10 samples.

Results

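The collagen genes of the mouse were followed in the postnatal testis as all rows of the deposited count table whose symbol reads Col, a number, a and a number. This rule took 44 of the 25239 genes in the table, and all 44 passed the filter on low counts. Every one was therefore tested, and none was dropped or imputed. By structure they were 11 fibrillar chains, 6 chains of type IV, 6 of type VI, 9 fibril-associated chains (FACIT), 4 transmembrane chains, 2 multiplexins, 3 chains of types VIII and X, Col7a1, and a remainder of Col26a1 and Col28a1.

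Collagens are secreted or membrane-bound proteins whose chains wind into a triple helix, built on a repeat in which glycine returns at a fixed spacing. Fibrillar chains form the cables of the interstitium, type IV chains form the sheet of every basement membrane, and FACIT chains sit on the surface of fibrils. In the testis, a basement membrane of type IV collagen and laminin surrounds each seminiferous tubule between Sertoli and peritubular myoid cells, and fibrillar collagens fill the space around the tubules.

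RNA-seq was done on testes of C57BL/6 mice at postnatal day 4 (P4) and day 7 (P7). Wild-type (WT) libraries numbered 2 at each age, and libraries of the conditional knockout (cKO), whose genotype label is Lsm7-flfl-stra8, numbered 3 at each age. That label names a floxed Lsm7 allele (Lsm7 is a protein of the U6 spliceosomal particle) and Stra8, a gene of differentiating germ cells. The labels do not give the Cre line, the share of cells that lost Lsm7, or whether libraries came from separate animals, so each p-value is set against a spread between libraries that may be technical. RNA came from the testis, although the cell type label reads germ cell. Sertoli cell markers were read in every sample at a summed 2644 to 5248 CPM (counts scaled to 1 M reads) and stromal progenitor markers at 868 to 3461 CPM, so the libraries were not of germ cells alone.

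Libraries held 28.8 to 41.8 M reads. The 2 P7 WT libraries agreed within about sampling noise, with a chi-square of 1.98 per degree of freedom where libraries of the other groups gave 23.5 to 123. They were summed and counted as 1 sample, so that 9 samples entered each fit and P7 WT had no replicate of its own. Over all genes, P7 cKO library 1 stood apart from the other 2 of its group (chi-square per degree of freedom 117 and 123, against 23.5 between those 2). It was the lowest of the 3 for 34 of the 44 collagen genes, and the same share over all genes was not computed. A lower level of Lsm7 itself was not detected in the libraries labelled cKO, with a log2 fold change of 0.58 at P4 (edgeR adjusted p = 0.215) and -0.13 at P7 (adjusted p = 0.835). Counts were summed over all exons of a gene, and a loss of some exons alone would not show in them.

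The glycine repeat is visible in the coding sequence of the genes measured here, and 8 exons are shown because their genes carry the results that follow and because each is 54 bases long and spells 6 repeats. Each line gives the coding strand from 5′ to 3′ from the GENCODE M21 transcripts of GRCm38, with the 6 glycine codons (GGN) in capitals.
Col1a1: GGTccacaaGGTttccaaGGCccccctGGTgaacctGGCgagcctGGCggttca
Col1a2: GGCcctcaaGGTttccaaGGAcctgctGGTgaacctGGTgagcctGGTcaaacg
Col3a1: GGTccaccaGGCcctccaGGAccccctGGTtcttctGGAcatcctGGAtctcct
Col2a1: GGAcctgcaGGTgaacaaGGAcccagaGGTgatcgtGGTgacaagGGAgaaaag
Col16a1: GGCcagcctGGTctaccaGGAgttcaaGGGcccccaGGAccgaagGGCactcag
Col13a1: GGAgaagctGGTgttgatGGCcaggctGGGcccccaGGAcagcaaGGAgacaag
Col4a3: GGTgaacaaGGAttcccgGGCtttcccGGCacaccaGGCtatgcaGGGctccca
Col4a5: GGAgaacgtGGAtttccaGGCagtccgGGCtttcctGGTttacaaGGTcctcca

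These exons are exon 8 of Col1a1 (chr11:94939904-94939957, plus strand), exon 8 of Col1a2 (chr6:4515481-4515534, plus strand), exon 6 of Col3a1 (chr1:45325360-45325413, plus strand) and exon 6 of Col2a1 (chr15:97998545-97998598, minus strand). The others are exon 34 of Col16a1 (chr4:130067219-130067272, plus strand), exon 24 of Col13a1 (chr10:61869524-61869577, minus strand), exon 7 of Col4a3 (chr1:82651254-82651307, plus strand) and exon 7 of Col4a5 (chrX:141575988-141576041, plus strand). Of the 2005 coding exons of the 44 genes, 469 (23.4%) were 54 bases long, against 0.7% of the coding exons of all tested genes. Exon lengths that are multiples of 9 bases, a whole number of glycine repeats, made up 61.8% of collagen coding exons and 14.3% of those of all tested genes. The fibrillar genes carried most of the 54-base exons, 305 of 649 coding exons (47.0%), while the type IV genes had 12 of 296 (4.1%). The longest transcripts of the collagen genes had a median GC content of 55.1% (45.9% to 62.9%), against 48.6% over all genes in the table. Their exons summed to a median of 6120 bases, against 2259 over all genes.

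Levels are given as RPKM, the TMM-scaled CPM divided by the gene's summed exon length in kilobases, and are compared between genes only on that scale. The interstitial fibril chains led the family. Col1a2, the second chain of type I collagen, was read at 652 and 757 RPKM in P4 WT, 614, 842 and 884 RPKM in P4 cKO, 434 RPKM in P7 WT, and 206, 271 and 335 RPKM in P7 cKO. Every P4 sample lay above every P7 sample. Col3a1, the chain of type III collagen of reticular fibres, had 504 and 609 RPKM in P4 WT, 529, 792 and 867 RPKM in P4 cKO, 317 RPKM in P7 WT, and 167, 252 and 302 RPKM in P7 cKO. Col1a1, the main chain of type I collagen, had 347 and 419 RPKM in P4 WT, 453, 654 and 576 RPKM in P4 cKO, 166 RPKM in P7 WT, and 137, 250 and 280 RPKM in P7 cKO. Both again separated the ages without overlap. The top 3 ranks went to these chains, which took 54% to 63.9% of the collagen reads of each library.

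The next levels belonged to type VI and type IV chains. Col6a1, a chain of the beaded microfibrils around cells, had 261 and 278 RPKM in P4 WT and 301, 383 and 380 RPKM in P4 cKO, and fell to 114 RPKM in P7 WT and 102, 161 and 188 RPKM in P7 cKO. Col6a2 followed at 27.3 to 176 RPKM over the 9 samples. Col4a1 and Col4a2, the chains found in nearly all basement membranes, ranged from 35.4 to 156 RPKM and from 39.6 to 105 RPKM. Col18a1, a basement membrane multiplexin that carries endostatin, was the leading member of its class at 39.2 to 74.6 RPKM. In the remaining classes the leaders were Col9a2 among the FACIT chains (6.91 to 67.1 RPKM), Col26a1, first described in testis and ovary, in the remainder (4.17 to 28.5 RPKM), Col23a1 among the transmembrane chains (3.83 to 21.0 RPKM), and Col8a2 among types VIII and X (1.68 to 14.6 RPKM).

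At the other end, Col19a1, Col10a1 and Col8a1 had mean levels (here and below, the mean of the 4 group means) of 0.0586, 0.139 and 0.219 RPKM. Col19a1 was counted by only 2 to 54 reads per library and Col10a1 by 7 to 25, so that their fold changes rest on few reads. The mean level of the 44 genes thus spanned from 547 RPKM (Col1a2) to 0.0586 RPKM (Col19a1). Together, collagen genes took 1.43% to 1.87% of all reads in the 5 P4 libraries and 0.555% to 0.941% in the 5 P7 libraries, with no overlap between the ages.

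**Figure D1:**
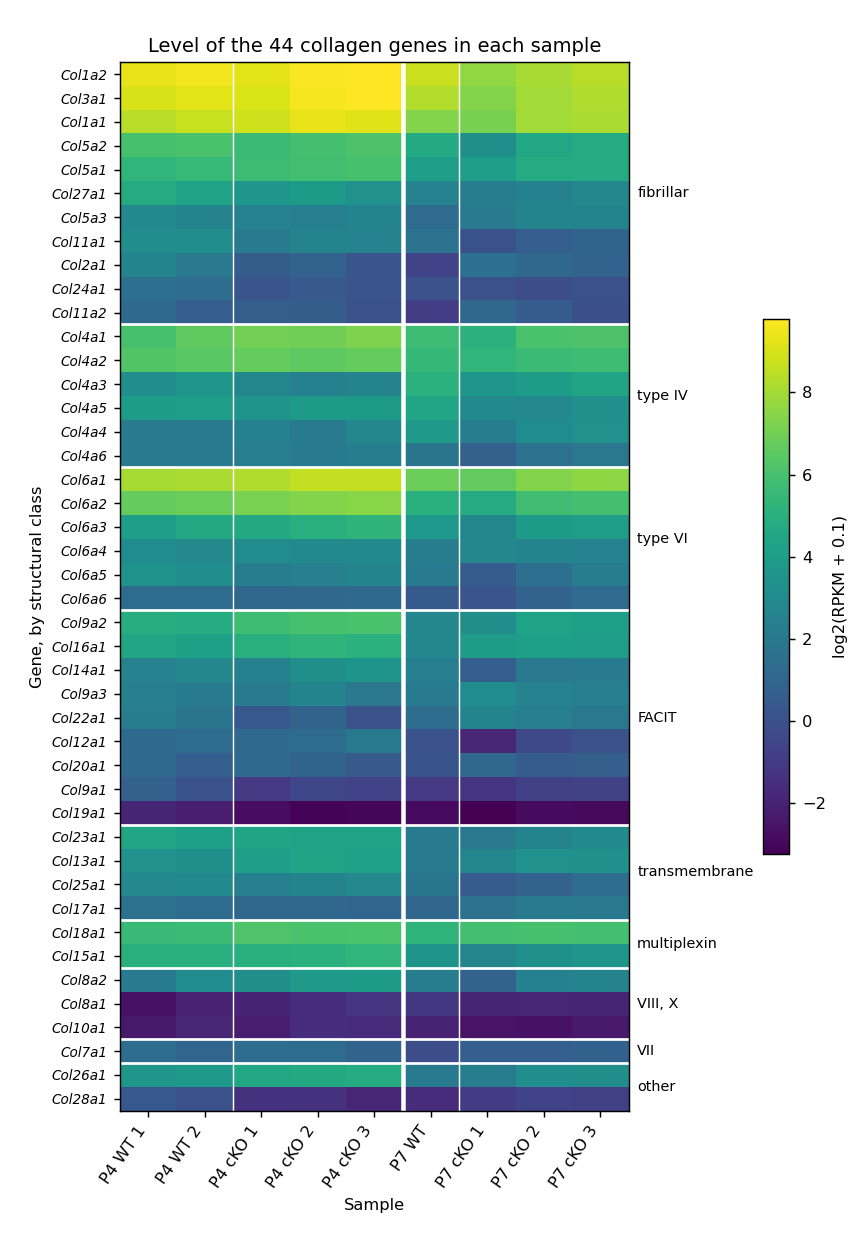
Level of each of the 44 collagen genes (vertical axis, grouped by structural class) in each of the 9 samples (horizontal axis), as colour on the scale log2(RPKM + 0.1). The fibrillar chains Col1a2, Col3a1 and Col1a1 form the brightest block, the P4 columns are brighter than the P7 columns for most genes, and P7 cKO 1 is the darkest P7 column for several fibrillar and FACIT chains.

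The first comparison asked how collagen transcripts changed between P4 and P7 in each genotype. More members fell than rose. In WT, 21 of 44 genes fell and 3 rose past an adjusted p of 0.05 (edgeR quasi-likelihood test, Benjamini-Hochberg over 18419 genes), where 21.8% of all tested genes passed in either direction, 9.97% fell and 11.8% rose. The median log2 fold change of the 44 genes was -1.21, against -0.03 over all genes tested, and 39 of 44 values were below 0. In cKO, 24 genes fell and 4 rose, where 29.2% of all tested genes passed, 14.7% fell and 14.5% rose. Here the median was -1.06, against 0.00 over all genes, with 36 of 44 values below 0. The genes that fell in both genotypes numbered 13, which is 61.9% of those that fell in WT and 54.2% of those that fell in cKO. Of all 44 members, 24 fell in cKO and 21 in WT, so many shared falls follow from these counts alone. The overlap over all genes was not computed. The 2 comparisons share no sample but use the same estimate of the spread. In bulk RNA, fewer cells of a type and less RNA per cell cannot be told apart.

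Among the fibrillar chains, 7 of 11 fell in WT and 7 in cKO. Col1a2 fell in cKO by 1.53 on the log2 scale (SE 0.22, edgeR adjusted p = 5.1e-04), Col3a1 by 1.6 (SE 0.25, adjusted p = 8.9e-04) and Col1a1 by 1.34 (SE 0.26, adjusted p = 0.0029). In WT, with a single P7 sample, their log2 values were -0.70 (adjusted p = 0.146), -0.81 (adjusted p = 0.144) and -1.21 (adjusted p = 0.0513), and none passed. Col27a1 and Col5a1, chosen after their values were seen in the second case, fell in both genotypes. Col5a1, which nucleates type I fibrils, went from 39.8 and 45.0 RPKM in P4 WT to 16.6 RPKM in P7 WT and from 52.4, 57.3 and 63.8 RPKM to 16.4, 27.0 and 27.6 RPKM in cKO. Col11a1, a chain that co-assembles with type II and type V collagens, fell in WT (log2 -1.47, SE 0.37, edgeR adjusted p = 0.0174) and in cKO (log2 -1.90, SE 0.24, adjusted p = 2.4e-04). Col2a1, the main collagen of cartilage, had the largest fall of any member in WT, from 6.20 and 3.80 RPKM to 0.554 RPKM (log2 -3.17, SE 0.47, edgeR adjusted p = 0.0017), while in cKO its log2 value was 0.66 (adjusted p = 0.0847). Without P4 WT library 1 the WT fall of Col11a1 was no longer past the threshold (log2 -1.48), whereas that of Col2a1 still was. The other fibrillar chains that fell in WT were Col11a2 (log2 -2.08, SE 0.53, edgeR adjusted p = 0.0193), Col24a1 (log2 -1.58, adjusted p = 0.0052) and Col5a3 (log2 -1.51, adjusted p = 0.0052), from 2.25 and 1.5 RPKM to 0.441 RPKM, from 2.76 and 2.61 RPKM to 0.898 RPKM and from 7.53 and 5.95 RPKM to 2.37 RPKM. None of the 3 passed in cKO, and the fall of Col11a2 was lost without P4 WT library 1 (log2 -1.77) and with offsets for length and GC content (log2 -1.65).

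The FACIT chains Col9a2 and Col16a1 fell in both genotypes. Col9a2, a chain of type IX collagen, was read at 29.1 and 28.2 RPKM in P4 WT and 6.91 RPKM in P7 WT, and at 52.6, 63.8 and 67.1 RPKM in P4 cKO and 8.98, 19.6 and 17.1 RPKM in P7 cKO. All P4 samples lay above all P7 samples, and the log2 fold change was -2.05 in WT (SE 0.40, edgeR adjusted p = 0.0063) and -2.01 in cKO (SE 0.25, adjusted p = 2.4e-04). Col12a1, which binds the surface of type I fibrils, fell in cKO (log2 -2.31, SE 0.46, adjusted p = 0.0043), from 2.25, 2.52 and 4.0 RPKM to 0.181, 0.684 and 0.894 RPKM. Its lowest value was that of P7 cKO library 1, and without that library the fall was still past the threshold (log2 -1.89). Col22a1, a FACIT chain of tissue junctions, went the other way in cKO, from 1.18, 1.80 and 0.954 RPKM to 6.01, 4.97 and 3.77 RPKM (log2 1.91, SE 0.27, edgeR adjusted p = 4.7e-04).

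In the smaller classes, the transmembrane chains Col23a1, Col13a1 and Col25a1 (the last chosen after its values were seen) fell in both genotypes. Col23a1 dropped from 21.0 and 17.1 RPKM to 4.49 RPKM in WT (log2 -2.08, edgeR adjusted p = 0.0035) and from 20.4, 18.8 and 19.8 RPKM to 3.83, 5.94 and 7.60 RPKM in cKO (log2 -1.76, adjusted p = 2.4e-04). Its P4 and P7 samples did not overlap. The WT fall of Col25a1 was lost without any 1 of 5 libraries (P4 WT 1 or 2, P4 cKO 1 or 2, P7 cKO 2). Col6a1 and Col6a2 fell by 1.24 and 1.74 in WT and by 1.24 and 1.76 in cKO. Col26a1 went from 12.4 and 14 RPKM to 4.17 RPKM in WT (log2 -1.66) and from 24.0, 25.3 and 28.5 RPKM to 4.72, 8.66 and 9.19 RPKM in cKO (log2 -1.78), and both falls passed. Col7a1, the chain of the fibrils that anchor epithelia, fell in WT (log2 -1.52, adjusted p = 0.0087) and had a log2 value of -0.55 in cKO (adjusted p = 0.0582). Col8a2, a chain of the hexagonal network under some endothelia, fell in cKO by 1.5 (SE 0.43, adjusted p = 0.0243), a call lost without P4 cKO library 2 or 3. Without P4 WT library 1, the WT falls of Col13a1 (log2 -1.17), Col6a1 and Col7a1 were lost, and Col6a1 was also lost without P4 WT library 2. With offsets for length and GC content, the WT falls of Col13a1 (log2 -0.76), Col6a1 (log2 -0.92) and Col26a1 (log2 -1.17) were lost.

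Col28a1, a chain with von Willebrand factor domains known from peripheral nerve, fell in WT (log2 -2.12, SE 0.49, edgeR adjusted p = 0.0121) and rose in cKO (log2 0.99, SE 0.31, adjusted p = 0.0322). It had 1.17 and 0.906 RPKM in P4 WT and 0.238 RPKM in P7 WT, against 0.280, 0.291 and 0.174 RPKM in P4 cKO and 0.431, 0.558 and 0.483 RPKM in P7 cKO. The P4 WT samples were thus the highest of all, and the P4 cKO samples were as low as P7 WT. Reads of this gene numbered 26 to 150 per library. The WT call was lost without P4 WT library 1 and the cKO call without any 1 of 5 libraries (P4 cKO 1, 2 or 3, P7 cKO 2 or 3).

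The remaining members that passed with age were chosen after their values were seen, to complete the counts. Col15a1, a multiplexin of basement membrane zones, fell in both genotypes, from 30.7 and 30.5 RPKM to 11.1 RPKM in WT (log2 -1.46) and from 30.5, 34.3 and 39.6 RPKM to 6.27, 9.87 and 11.9 RPKM in cKO (log2 -1.90). Col9a1, another chain of type IX collagen, fell in WT (log2 -1.72, edgeR adjusted p = 0.0351), a call lost without P4 WT library 1, P7 WT library 2 or P7 cKO library 2. Col6a4 fell in WT (log2 -0.72) and Col5a2, Col6a3 and Col14a1 fell in cKO (log2 -1.61, -1.36 and -1.46). Col17a1 rose in cKO (log2 0.86, edgeR adjusted p = 0.0050), from 2.07, 2.12 and 1.89 RPKM to 3.14, 4.05 and 3.84 RPKM. Col8a1 rose in WT (log2 1.81, adjusted p = 0.0488) on 10 to 65 reads per library. Col8a1 and Col6a4 were each lost in WT without any 1 of 6 libraries, and Col14a1 in cKO without P4 cKO library 3. With offsets for length and GC content Col8a1 (log2 1.59) and Col6a4 (log2 -0.58) were lost in WT too. Over these and the comparisons of the genotypes, 38 of 44 members passed in at least 1 comparison, and Col10a1, Col18a1, Col20a1, Col6a5, Col6a6 and Col9a3 in none.

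Without P4 WT library 1 the WT comparison gave 1 rise and 11 falls among collagen genes, and without P7 cKO library 1 it had 3 rises and 28 falls. The cKO comparison stayed at 25 to 31 calls under every alternative run. With offsets for length and GC content the WT comparison gave 2 rises and 15 falls, beside 1650 and 1460 over all 18419 genes. Over all 18314 genes, 3290 rose and 3025 fell in WT without P7 cKO library 1.

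**Figure D2:**
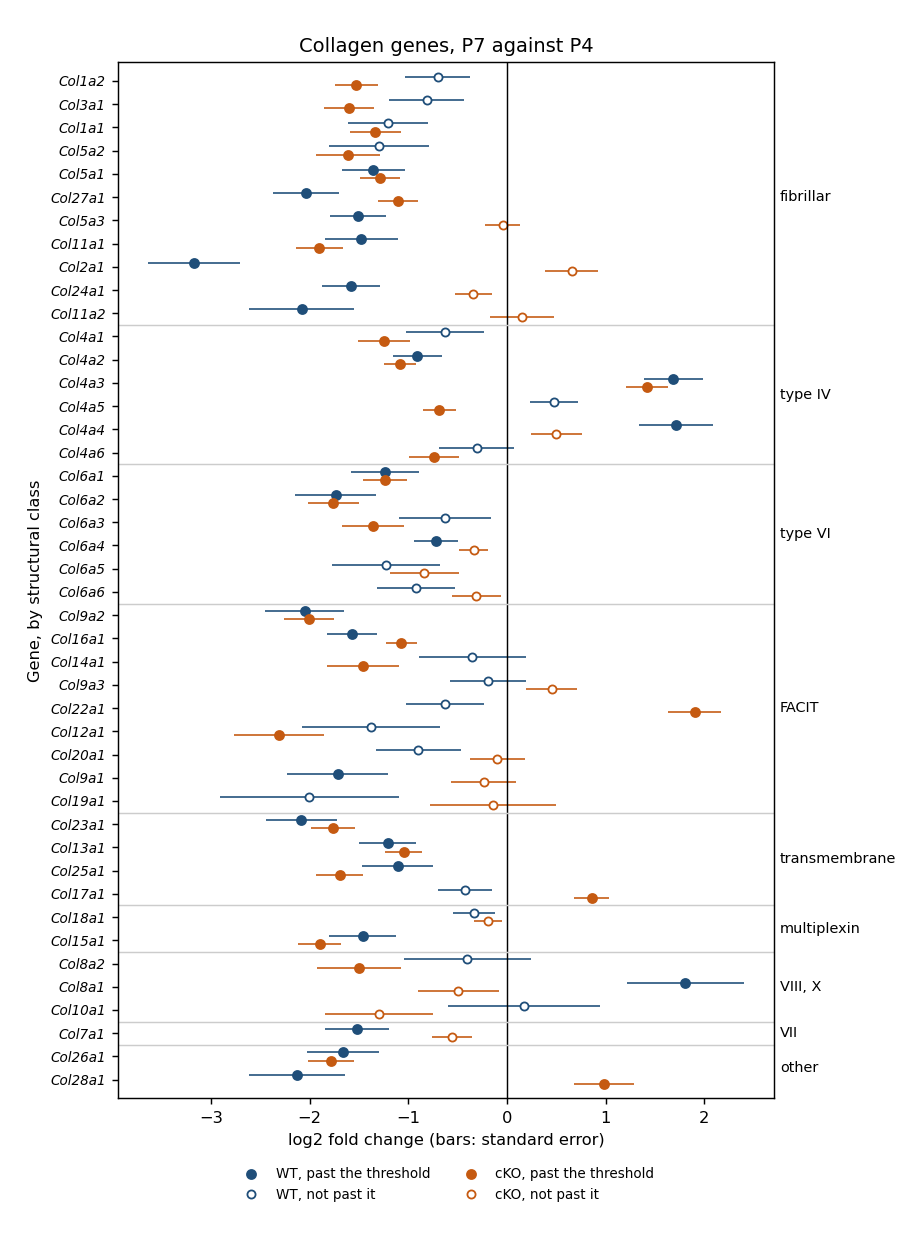
Log2 fold change from P4 to P7 (horizontal axis, bars are standard errors) for each collagen gene (vertical axis, by structural class) in WT (blue) and cKO (orange), filled where the adjusted p was under 0.05. Most points lie left of 0, with Col4a3 right of 0 and filled in both genotypes, and Col28a1 filled left of 0 in WT and right of 0 in cKO.

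The type IV chains did not move as one. Their 6 genes lie in 3 head-to-head pairs, and the members of a pair are transcribed away from each other. On chromosome 8 the annotated starts of Col4a1 (minus strand) and Col4a2 (plus strand) overlap by 22 bases. On chromosome 1 Col4a4 and Col4a3 are separated by 71 bases, and on the X chromosome Col4a6 and Col4a5 by 1342 bases. The 71 bases are shown because they separate the members that rose in WT (chr1:82586850-82586920, GRCm38, plus strand, which is the strand of Col4a3).
Col4a4 to Col4a3 gap: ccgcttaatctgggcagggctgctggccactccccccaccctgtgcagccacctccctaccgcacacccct

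The gap holds no annotated exon base. Of the promoter motifs searched on both strands, none of which contains another, it held none, which says only that these letters are not in this window. In the 250 bases before the RefSeq start (GRCm38.p6), which could be matched for 35 of the 44 genes, CCAAT was found for 12 genes (34.3%, against 36.0% of 14334 tested genes). TATAAA was found for 5 genes (14.3%, against 8.0%). The Sp1-type motif GGGCGG was found for 21 genes (60.0%, against 52.5%).

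Col4a3, a chain of the specialised network known from the glomerular basement membrane, had 8.79 and 12.4 RPKM in P4 WT, 6.62, 5.5 and 5.93 RPKM in P4 cKO, 34.2 RPKM in P7 WT, and 12.4, 15.0 and 20.9 RPKM in P7 cKO. It was higher at P7 in both genotypes (log2 1.69, SE 0.30, edgeR adjusted p = 0.0038 in WT, and log2 1.42, SE 0.21, adjusted p = 6.1e-04 in cKO). It was lower in cKO at both ages, by 0.82 at P4 (SE 0.23, edgeR adjusted p = 0.0462) and by 1.09 at P7 (SE 0.27, adjusted p = 0.0235), and the groups did not overlap at either age. The P4 difference lay close to the threshold and was lost without any 1 of the 5 P4 libraries or without P7 cKO library 2. It was also lost with offsets for length and GC content (log2 -0.74). The P7 difference was lost without P7 cKO library 2 and with offsets for gene length (log2 -0.71), while both rises with age passed under every alternative run.

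Its neighbour Col4a4, the partner chain of the same network, rose with age in WT from 4.12 and 4.49 RPKM to 14.1 RPKM (log2 1.72, SE 0.38, edgeR adjusted p = 0.0102), a call lost without P4 WT library 1. In cKO it had 5.53, 4.05 and 6.92 RPKM at P4 and 4.82, 8.58 and 9.95 RPKM at P7, which overlap (log2 0.50, adjusted p = 0.172). Col4a5, the X-linked chain of the network, was read at 15.0 and 16.2 RPKM in P4 WT, 11.3, 14.5 and 14.3 RPKM in P4 cKO, 21.8 RPKM in P7 WT, and 7.95, 7.19 and 9.81 RPKM in P7 cKO. P7 cKO was the lowest group and P7 WT the highest. Col4a5 fell with age in cKO by 0.69 (SE 0.17, edgeR adjusted p = 0.0099) and was lower in cKO than in WT at P7 by 1.39 (SE 0.22, adjusted p = 0.0064). Col4a6 fell in cKO by 0.73 (SE 0.25, adjusted p = 0.0485), a call that was lost without any 1 of 6 libraries (P4 WT 1 or 2, P4 cKO 1, 2 or 3, P7 cKO 2). Without P7 cKO library 1 it fell by 0.46 and passed. Its levels were 1.59 to 4.91 RPKM.

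Col4a1 and Col4a2 moved with the interstitial chains. In cKO they fell by 1.25 (SE 0.26, edgeR adjusted p = 0.0049) and by 1.08 (SE 0.16, adjusted p = 6.6e-04), and in WT Col4a2 fell by 0.91 (adjusted p = 0.0258) while Col4a1 had a log2 value of -0.63 (adjusted p = 0.274). The WT fall of Col4a2 was lost without either P4 WT library and with offsets for length and GC content (log2 -0.50). Neither chain passed between the genotypes at P4 or P7. The ratio of Col4a3 to Col4a4 RPKM within a sample was 2.13 and 2.77 in P4 WT, 1.2, 1.36 and 0.857 in P4 cKO, 2.42 in P7 WT, and 2.58, 1.75 and 2.10 in P7 cKO. The P4 genotypes did not overlap (exact two-sided permutation test p = 0.2, the smallest that 3 samples against 2 can give).

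The second comparison was cKO against WT at P4. Of the 44 genes, 8 were lower in cKO and 4 higher, where 8.96% of all tested genes passed, 4.13% lower and 4.84% higher. The median log2 fold change was 0.10, against 0.00 over all genes. The lower genes had mean levels of 0.0586 to 16.7 RPKM and the higher genes of 10.3 to 28.0 RPKM, and the 10 most abundant members did not pass. No collagen gene passed once P4 WT library 1 was left out, nor once P4 cKO library 2 or 3 was. Over all genes few calls remained too: 13 of 18405 without P4 cKO library 2 and 11 of 18270 without library 3. Without P4 WT library 1 that group held a single sample. Without P7 cKO library 1, which enters only through the shared estimate of the spread, 9 collagen genes were higher and 10 lower. Over all 18314 genes, 2241 were higher and 1916 lower in that run. With offsets for length and GC content 5 collagen genes were lower and none higher, beside 333 and 461 of all 18419 genes.

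Col2a1 had 6.20 and 3.80 RPKM in P4 WT and 1.41, 1.73 and 1.05 RPKM in P4 cKO, with no overlap (log2 -1.84, SE 0.29, edgeR adjusted p = 0.0122). Col24a1, a minor fibrillar chain known from bone and cornea, had 2.76 and 2.61 RPKM against 1.03, 1.23 and 1.06 RPKM (log2 -1.28, SE 0.20, adjusted p = 0.0122). Col27a1, a minor fibrillar chain known from cartilage, had 27.2 and 19.2 RPKM against 12.1, 14.4 and 10.2 RPKM (log2 -0.93, SE 0.22, adjusted p = 0.0312). Each P4 cKO sample was below each P4 WT sample for all 3 genes. Col22a1 was lower by 1.61 (SE 0.29, adjusted p = 0.0154), from 4.71 and 3.31 RPKM to 1.18, 1.80 and 0.954 RPKM, and Col28a1 by 2.07 (SE 0.33, adjusted p = 0.0122). Col9a1 (log2 -1.25, adjusted p = 0.0488) and Col19a1 (log2 -2.39, adjusted p = 0.0430), low-level FACIT chains chosen after their values were seen, completed the lower group with Col4a3, and both were lost without any 1 of 7 libraries (the 5 P4 libraries, P7 cKO 2 or 3). Without P4 WT library 1 the log2 value of Col9a1 was -0.82. With offsets for length and GC content neither Col9a1 (log2 -1.29) nor Col19a1 (log2 -2.19) passed. Their direction was kept in every alternative run.

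The higher genes at P4 were Col9a2, Col26a1, Col13a1 and Col16a1. Col16a1, a FACIT-like chain that binds integrins, had 22.4 and 17.7 RPKM in P4 WT and 29.9, 39.0 and 34.1 RPKM in P4 cKO (log2 0.77, SE 0.18, edgeR adjusted p = 0.0277). Col13a1, a transmembrane chain known from the neuromuscular junction, had 9.96 and 9.30 RPKM against 16.7, 20.2 and 18.3 RPKM (log2 0.93, SE 0.21, adjusted p = 0.0259). Col9a2 was higher by a log2 value of 1.10 (SE 0.28, adjusted p = 0.0372) and Col26a1 by 0.97 (SE 0.26, adjusted p = 0.0410). The groups did not overlap for any of the 4. With offsets for length and GC content they kept their sign at log2 0.79 for Col9a2, 0.72 for Col26a1, 0.72 for Col13a1 and 0.49 for Col16a1, and none passed. None passed either with 1 of the P4 WT libraries or P4 cKO library 2 or 3 left out. Col9a2 and Col26a1 were also lost without P4 cKO library 1, and Col26a1 without P7 cKO library 2.

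At P7, 7 of 44 genes were higher in cKO and 3 lower, where 17.0% of all tested genes passed, 7.26% higher and 9.72% lower. The median log2 fold change was 0.19, against 0.08 over all genes. Col2a1 was again among them but in the other direction, at 0.554 RPKM in the P7 WT sample and 2.73, 2.14 and 1.72 RPKM in P7 cKO (log2 1.99, SE 0.42, edgeR adjusted p = 0.0137). Col11a2, which assembles with Col11a1 and Col2a1 in cartilage, had 0.441 RPKM against 2.03, 1.34 and 0.872 RPKM (log2 1.68, SE 0.50, adjusted p = 0.0424). Col5a3, another type V chain, had 2.37 RPKM against 4.5, 6.06 and 6.05 RPKM (log2 1.23, SE 0.27, adjusted p = 0.0145). In all 3 the WT sample lay below every cKO sample.

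Col16a1 (6.75 RPKM in P7 WT against 15.6, 17.5 and 16 RPKM, log2 1.28, edgeR adjusted p = 0.0092) and Col13a1 (4.17 RPKM against 6.64, 10.2 and 9.87 RPKM, log2 1.09, adjusted p = 0.0237) were higher in cKO at both ages. They were 2 of the 4 genes that were higher at P4 and 2 of the 7 of 44 at P7. The overlap over all genes was not computed. The comparisons at P4 and P7 share no sample but use the same estimate of the spread. Col7a1 had 0.782 RPKM against 1.48, 1.49 and 1.67 RPKM (log2 0.99, adjusted p = 0.0455), and Col17a1, the transmembrane collagen of hemidesmosomes, chosen after its values were seen, 2.01 RPKM against 3.14, 4.05 and 3.84 RPKM (log2 0.87, adjusted p = 0.0456). Besides Col4a5 and Col4a3, the lower gene was Col11a1, at 3.18 RPKM in P7 WT and 0.931, 1.47 and 1.85 RPKM in P7 cKO (log2 -1.16, SE 0.31, edgeR adjusted p = 0.0283).

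Each P7 difference between genotypes rests on 1 WT sample, whose spread was taken from the other groups. When P7 cKO library 2 was left out, there were 3 higher genes and 1 lower, and Col11a1, Col11a2, Col13a1, Col4a3 and Col7a1 were among those lost. Col11a2 and Col7a1 were also lost without P4 cKO library 1 or 2 or P7 WT library 1, and Col7a1 without P7 cKO library 3. Col17a1 was lost without any 1 of 7 libraries, all but P4 WT 1, P7 WT 2 and P7 cKO 1. When P7 cKO library 1 was left out, there were 12 higher and 3 lower. Over all 18314 genes, 2370 were then higher and 2551 lower. The run without P7 cKO library 2 gave 323 higher and 638 lower of 18231 genes. With the P7 libraries fitted alone, or with offsets for length and GC content, no collagen gene passed. Calls over all genes were lost there too: none of 17832 passed with the P7 libraries alone and 2 of 18419 with the offsets. With those offsets the log2 values were 1.28 for Col2a1, 0.99 for Col11a2, 0.60 for Col16a1, 0.57 for Col5a3, 0.42 for Col13a1, 0.36 for Col7a1 and 0.48 for Col17a1, against -1.30 for Col4a5, -0.90 for Col4a3 and -0.77 for Col11a1. With offsets for length alone 9 collagen genes were higher and 1 lower, beside 1149 and 1201 of all 18419 genes.

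**Figure D3:**
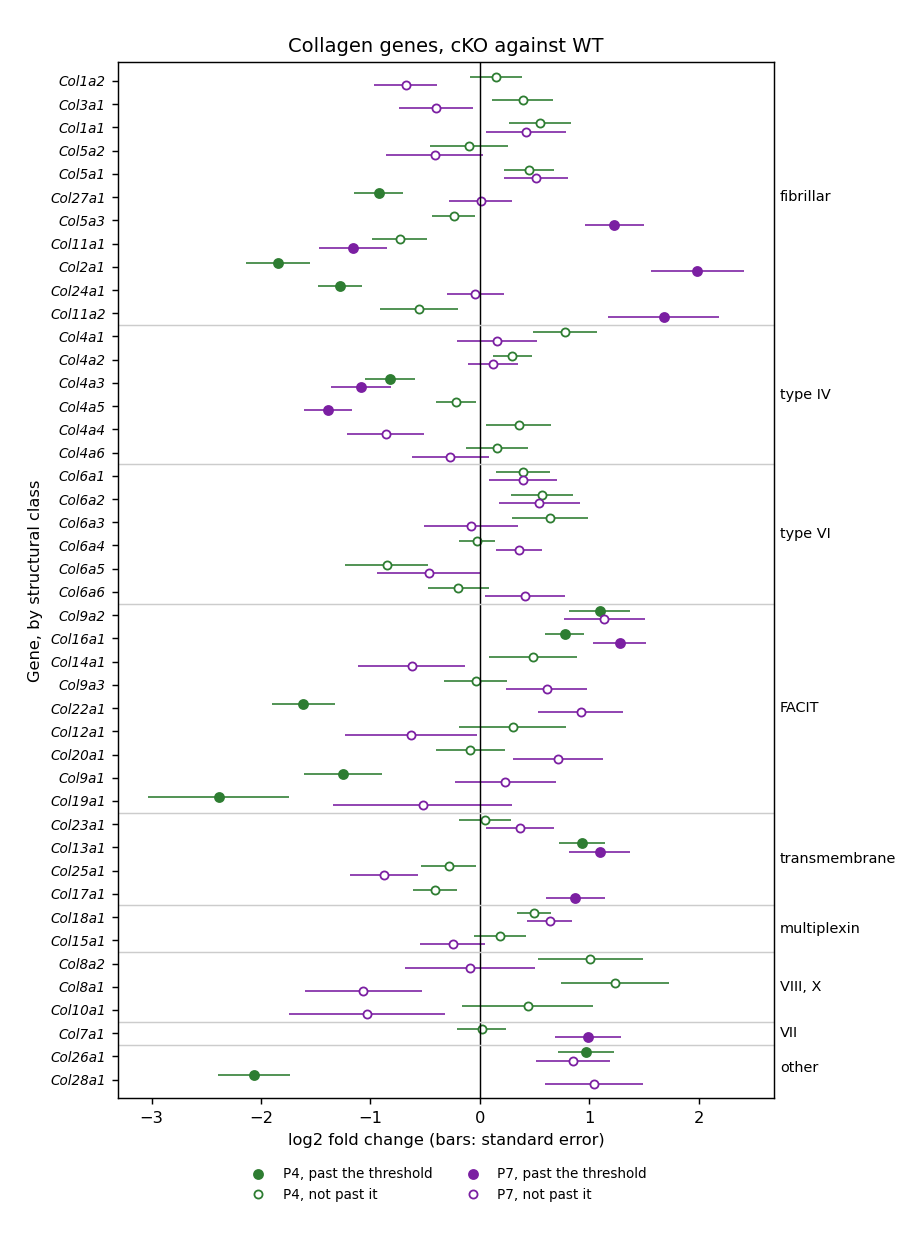
Log2 fold change of cKO against WT (horizontal axis, bars are standard errors) for each collagen gene (vertical axis, by structural class) at P4 and at P7, filled where the adjusted p was under 0.05. Col2a1 is filled left of 0 at P4 and right of 0 at P7, and Col13a1 and Col16a1 are filled right of 0 at both ages.

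At P7 the log2 fold changes between genotypes ran from mostly negative values in genes of lower GC content to mostly positive values in genes of higher GC content. Across the 44 genes, the log2 fold change of cKO against WT at P7 and the GC content of the longest transcript had a Pearson r of 0.757 (Spearman rho 0.746), given as a description, since genes are not independent replicates and share libraries and base composition. Over the 17989 tested genes with a GC value, r was 0.486 (rho 0.653). The 7 higher genes had GC contents of 57.0% to 62.9% and the 3 lower genes 48.0% to 51.5%. With the offsets for length and GC content, r over the collagen genes was 0.396. At P4, r over the collagen genes was 0.30, and the 8 lower genes ranged from 47.3% (Col19a1) to 62.2% (Col2a1). For P7 against P4, r was -0.358 in WT and -0.00 in cKO. The part of base composition in the genotype differences was not tested beyond these offsets.

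**Figure D4:**
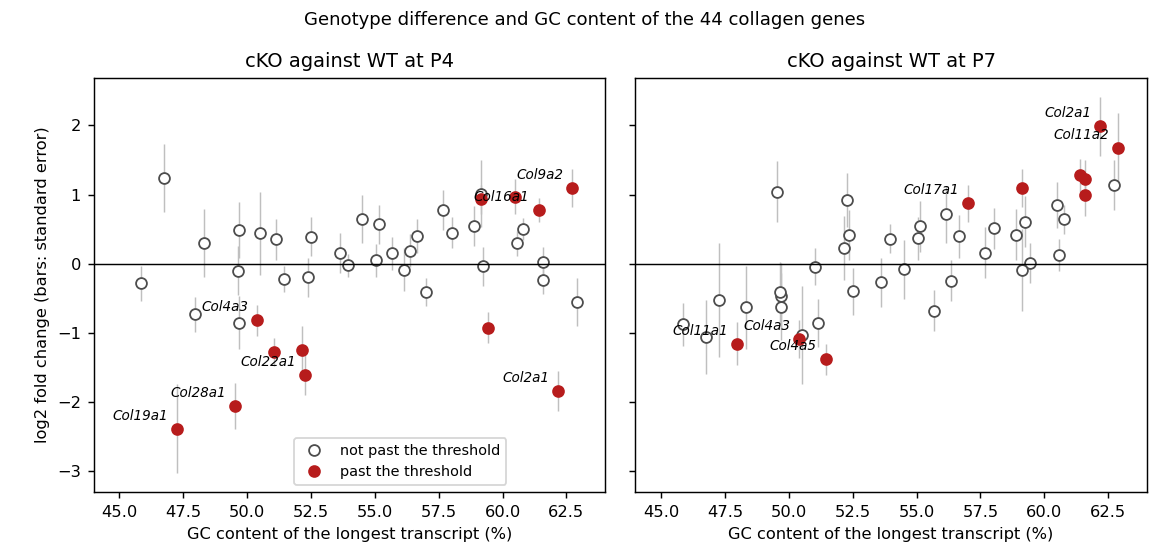
Log2 fold change of cKO against WT at P4 (left) and P7 (right) on the vertical axis, with standard error bars, against the GC content of each collagen gene's longest transcript in percent on the horizontal axis. At P7 the points rise from left to right, with filled points (adjusted p under 0.05) above 0 at 57.0% GC or more and below 0 at 51.5% or less, while at P4 Col2a1, at 62.2% GC, lies at -1.84.

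The genotype by stage interaction asked whether the change with age differed between genotypes. By edgeR it called none of the 44 genes and none of the 18419 tested (0.0%). At an unadjusted p under 0.05 there were 13 collagen genes, and 4619 genes in all. DESeq2 called 8 collagen genes, and 1611 of 21802 genes in all. The smallest p belonged to Col2a1, with an interaction of 3.83 on the log2 scale (SE 0.53, edgeR adjusted p = 0.0626), followed by Col28a1 (log2 3.11, SE 0.58, adjusted p = 0.0626) and Col22a1 (log2 2.53, SE 0.50, adjusted p = 0.0626). In all 3, P4 WT was higher than P4 cKO, and P7 cKO was higher than P7 WT. Col5a3 had 1.47 (adjusted p = 0.0663) and Col4a5 had -1.16 (adjusted p = 0.0729). Without P7 cKO library 1 the interaction called 7 collagen genes above 0 and 1 below, beside 542 and 913 of all 18314 genes. Leaving out P4 WT library 2 leaves a single P4 WT sample. The median interaction of the 44 genes was then -0.04, against 0.05 over all genes.

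**Figure D5:**
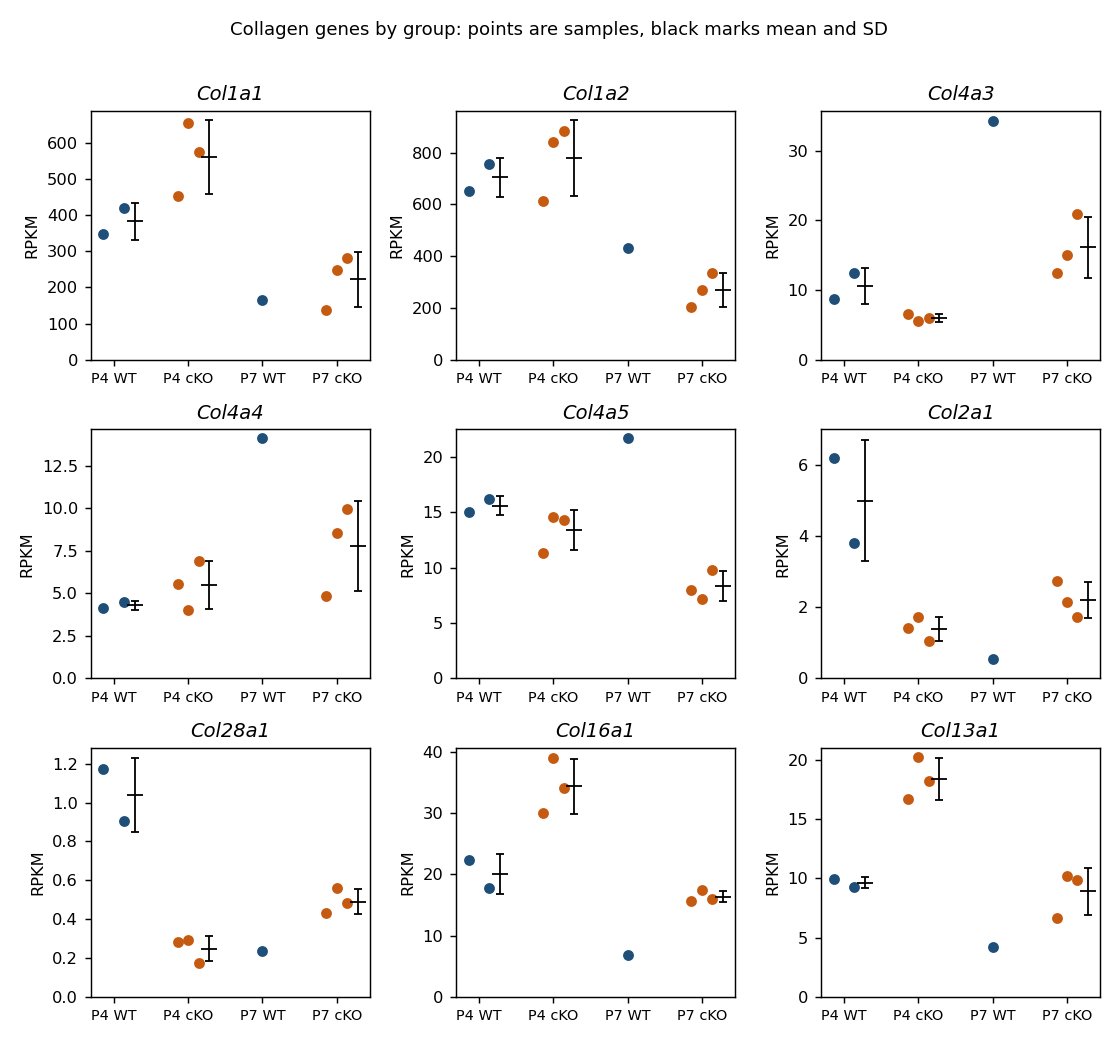
RPKM (vertical axes, each from 0) of 9 collagen genes in the 4 groups (horizontal axes), with 1 point per sample and black marks for mean and SD; P7 WT is a single sample and has none. Col1a1 and Col1a2 are highest at P4, Col4a3, Col4a4 and Col4a5 are highest in P7 WT, Col2a1 and Col28a1 are highest in P4 WT, and Col16a1 and Col13a1 are highest in P4 cKO.

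Chains that share a trimer can be compared within a sample. The ratio of Col1a1 to Col1a2 RPKM was 0.532 and 0.554 in P4 WT and 0.738, 0.776 and 0.652 in P4 cKO, and 0.383 in P7 WT against 0.665, 0.922 and 0.835 in P7 cKO. It was higher in every cKO sample than in the WT samples of its age (P4 exact two-sided permutation test p = 0.2, the smallest possible). For Col5a1 to Col5a2, chains of type V collagen, the ratio was 0.622 and 0.683 in P4 WT, 1.06, 0.928 and 0.903 in P4 cKO, 0.629 in P7 WT, and 1.77, 1.2 and 0.999 in P7 cKO. Col6a1 to Col6a2 ran from 2.12 to 3.73 over all samples, lower in the P4 cKO samples (2.12 to 2.29) than in P4 WT (2.45 and 2.5). GC content was higher in the first chain for Col1a1 to Col1a2 (58.9% and 55.7%), for Col5a1 to Col5a2 (58.0% and 49.6%) and for Col6a1 to Col6a2 (56.7% and 55.2%), of which the first 2 ratios were higher and the last lower in P4 cKO. For Col4a1 to Col4a2 it was lower in the first chain (57.7% and 60.6%), and that ratio was higher in P4 cKO (1.27 to 1.52) than in P4 WT (0.818 and 1.13). Col9a2 to Col9a3 was higher in P4 cKO, with the higher GC content in the first chain (62.7% and 59.2%). Col4a3 to Col4a4 (50.4% and 51.1%) and Col4a5 to Col4a6 (51.5% and 53.6%) were lower in P4 cKO, with the lower GC content in the first chain. Col3a1 to Col1a2 (52.5% and 55.7%) was higher in P4 cKO. The part of GC content in the ratios was not tested. In all, 10 ratios were computed, including Col3a1 to Col1a2, whose chains do not share a trimer, and 8 of them separated the genotypes at P4 at the same smallest exact permutation p of 0.2 (0.25 adjusted over the 10). Some ratios share a chain, such as Col1a2 or Col6a2, and are not independent. Ratios of other gene pairs were not computed, so the share expected outside the collagen genes is not known.

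The other genes of the collagen pathway are counted beside the shares of all tested genes, which with age were 9.97% falling and 11.8% rising in WT and 14.7% falling and 14.5% rising in cKO. Of 23 genes for folding and modification in the endoplasmic reticulum, 9 fell and 4 rose in WT and 15 fell and 2 rose in cKO. P3h3, of the prolyl 3-hydroxylase family, went from 63.3 and 43.2 RPKM to 12.2 RPKM in WT (log2 -2.13, edgeR adjusted p = 0.001). Creb3l1, a transcription factor that activates type I collagen genes, went from 30.5 and 27.9 RPKM to 9.50 RPKM in WT (log2 -1.62, edgeR adjusted p = 0.003). In cKO Creb3l1 fell by 1.52 and Crtap, a partner of prolyl 3-hydroxylase, by 1.16. At P4, 4 of the 23 were higher in cKO and none lower, where 4.84% of all tested genes were higher and 4.13% lower. They include Serpinh1, the collagen chaperone HSP47, at 333 and 397 RPKM in WT against 555, 628 and 595 RPKM in cKO (log2 0.70, SE 0.18, edgeR adjusted p = 0.037). At the later age 3 were higher and 4 lower, where 7.26% of all tested genes were higher and 9.72% lower. Plod2, a lysyl hydroxylase, was then at 125 RPKM in WT and 57.5, 30.3 and 40.2 RPKM in cKO (log2 -1.55, edgeR adjusted p = 0.008).

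Genes for procollagen cleavage and cross-linking numbered 15, of which 6 fell and 1 rose with age in WT (9.97% and 11.8% of all tested genes) and 9 fell and 1 rose in cKO (14.7% and 14.5%). Lox, which cross-links fibrils, was read at 25.8, 45.4 and 50.8 RPKM in P4 cKO and 6.24, 7.08 and 9.85 RPKM in P7 cKO (log2 -2.40). At P7 it was lower in cKO than the 18.0 RPKM of WT (log2 -1.22, edgeR adjusted p = 0.036). Pcolce, the enhancer of the procollagen C-proteinase, was higher in cKO at P4 (131 and 126 RPKM against 204, 217 and 176 RPKM, log2 0.63, edgeR adjusted p = 0.038). It was also higher at P7 (74.7 RPKM against 126, 127 and 124 RPKM, log2 0.75, edgeR adjusted p = 0.034). Of 10 collagen receptors, 2 were higher and 3 lower in cKO at P7 (7.26% and 9.72% of all tested genes). There Ddr1 had 35.8 RPKM in WT and 60.9, 70.1 and 63.9 RPKM in cKO, and Ddr2 9.89 RPKM against 4.21, 4.40 and 5.13 RPKM. These discoidin receptors thus moved in opposite directions (log2 0.86, adjusted p = 0.033, and log2 -1.11, adjusted p = 0.009). At P4 no receptor passed by edgeR.

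Of 11 tested turnover genes, 3 fell in WT and 7 in cKO with age (9.97% and 14.7% of all tested genes) and none rose. Timp1, an inhibitor of matrix metalloproteinases, had 18.8 and 21.0 RPKM in P4 WT and 9.10 RPKM in P7 WT (log2 -1.13, edgeR adjusted p = 0.011). Among 18 basement membrane partners, 5 fell and none rose in WT, and 9 fell and 1 rose in cKO, beside the same shares of all genes. Lamb1, a laminin chain of that membrane, had 121 and 116 RPKM in P4 WT and 56.6 RPKM in P7 WT. In cKO it had 141, 150 and 155 RPKM at P4 and 55.1, 66.3 and 70.6 RPKM at P7. Its log2 fold change with age was -1.07 in WT and -1.22 in cKO, both past the threshold. Among 18 interstitial partners 4 fell and 1 rose in WT and 13 fell and none rose in cKO (9.97% and 14.7% of all tested genes fell), with Vcan, a large proteoglycan, down by 2.21 in WT and by 1.88 in cKO. The median log2 change with age was below 0 in all 6 lists in both genotypes, from -0.10 (receptors in WT) to -1.31 (turnover in cKO).

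Marker genes of the testis cell types were read with age and with genotype. Of all tested genes, 9.97% fell and 11.8% rose with age in WT, and 14.7% fell and 14.5% rose in cKO. The summed level of 8 stromal progenitor markers was 2418 and 2585 CPM in P4 WT, 3121 to 3461 CPM in P4 cKO, 1276 CPM in P7 WT, and 868, 1408 and 1601 CPM in P7 cKO, the lowest being P7 cKO library 1. In WT 3 of the 8 fell with age and in cKO 7. Endothelial markers summed to 372 to 491 CPM at P4 and 191 to 260 CPM at P7, and 7 of 9 fell in WT and 8 of 9 in cKO. Mesothelial markers ran from 63.5 to 106 CPM at P4 and from 8.27 to 45.6 CPM at P7, with P7 WT the lowest, and 4 of 6 fell in WT and 5 in cKO. Peritubular myoid markers summed to 1347 to 1767 CPM over all samples, and 1 of 7 fell in WT and 3 in cKO. Of 7 Leydig cell markers 2 rose in WT and 4 fell in cKO, and of 8 macrophage markers none passed in WT and 6 fell in cKO. Of 10 Sertoli cell markers 4 rose and 1 fell in WT, and 3 rose and 2 fell in cKO. Germ cell markers were at 292 to 414 CPM at P4 and 1417 to 1836 CPM at P7, and 10 of 11 rose in each genotype. Erythroid markers summed to at most 14.9 CPM, and 4 of the 5 had no read in at least 1 group.

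Between the genotypes at P4, 4.84% of all tested genes were higher in cKO and 4.13% lower. Several of these lists had members that were higher in cKO, as the folding genes did, whereas 4 collagen genes were higher and 8 lower. Sertoli markers summed to 2644 and 3547 CPM in WT and 4628 to 5248 CPM in cKO, with 4 of 10 higher. Leydig markers summed to 500 and 563 CPM against 742 to 928 CPM, with 3 of 7 higher, and macrophage markers to 84.5 and 84.7 CPM against 88.6 to 146 CPM, with 3 of 8 higher. Of the peritubular myoid markers 3 of 7 were higher and of the endothelial markers 1 of 9. None of these 5 lists had a lower member, no stromal progenitor or mesothelial marker passed, and 1 of 11 germ cell markers was lower. At P7, 7.26% of all tested genes were higher in cKO and 9.72% lower. There 3 of 9 endothelial markers were higher in cKO and none lower, and each other list had at most 2 members in either direction.

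For the cartilage chains Col2a1, Col11a2 and Col9a2, 5 chondrocyte markers were read. They summed to 37.1 and 51.6 CPM in P4 WT, 41.9, 56.1 and 54.4 CPM in P4 cKO, 47.1 CPM in P7 WT, and 21.6, 15.9 and 22.6 CPM in P7 cKO. The sum was led by Acan, Hapln1 and Sox5, each read in every library. Acan, the large proteoglycan of cartilage, was higher in cKO at P4 (11.8 and 10.1 CPM against 18.7, 22.6 and 20.6 CPM, log2 0.91, edgeR adjusted p = 0.0488), where Col2a1 was lower. Hapln1, which links proteoglycans to hyaluronan, was lower in cKO at P7 (32.9 CPM against 7.35, 6.33 and 9.34 CPM, log2 -2.10, adjusted p = 0.0098), where Col2a1 was higher. Sox5, a transcription factor of cartilage and other tissues, was lower there too (10.3 CPM against 3.98, 3.57 and 6.35 CPM, log2 -1.15, adjusted p = 0.0345). Matn1, a cartilage matrix gene, had 14 and 8 reads in the P4 WT libraries, none in the 3 P4 cKO and the 2 P7 WT libraries, and 2, 2 and 4 reads in the P7 cKO libraries, and was called lower in cKO at P4 (adjusted p = 0.0311). These calls of Acan, Hapln1 and Sox5 were opposite in sign to Col2a1, while the few reads of Matn1 lay in the groups in which Col2a1 was higher. Acan had the sign of Col2a1 in cKO against WT at P7 (log2 0.97 and 1.99) and with age in WT (log2 -1.49 and -3.17). With age in cKO their signs differed (log2 -1.43 and 0.66). Acan and Col9a2 had the same sign between genotypes at both ages and with age in both genotypes. Snorc, another cartilage gene, had 4 and 6 reads in P4 WT, 0 to 2 in each other library and none in P7 WT. The part of these cell types in the collagen differences was not tested.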

How the data were processed

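Gene counts were deposited by the authors as 1 table of read counts per gene, with gene position and summed exon length. Per the submitters' processing notes, reads were processed with STAR 2.7.11a on GRCm38 (mm10) and featureCounts of Subread 2.0.6, after Trim Galore 0.6.10, with FastQC 0.12.1, MultiQC 1.14 and SAMtools 1.6. Per the labels' protocols, total RNA of the testis was made into TruSeq libraries. Neither the strand setting nor the handling of multiply mapped reads is given in the sources used here. Overlapping genes are therefore uncertain: Col4a1 and Col4a2 share 22 exon bases, Col7a1 and Mir711 36, and Col9a3 and Tcfl5 230 (8.08% of Col9a3). Of counts under 50, 67.8% to 80% were even, the pattern of a table that counts each mate of a pair, for which sampling noise alone gives a chi-square per degree of freedom near 2.

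Genes kept by filterByExpr (18419) were fitted on TMM-scaled library sizes with edgeR 4.0.16 in R 4.3.3 (robust quasi-likelihood F test, 1 mean per group, 9 samples, 5 residual degrees of freedom, common biological coefficient of variation 0.228). P-values were two-sided and adjusted over all 18419 genes (Benjamini-Hochberg, threshold 0.05). Standard errors (SE) were derived from the fold change and its F statistic. The script was tested on simulated data. GC content is that of the longest GENCODE M21 transcript, known for 96.5% of genes and all 44 members.

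The members, gene lists and tests were chosen with earlier results of these data known. Members given sample by sample are those past the threshold between genotypes (for more than 16, the 8 with the smallest p in each comparison), the 6 of highest level, the 3 largest rises and falls with age in each genotype at an average log2 CPM of 1 or more, the type IV chains and the leader of each class. Lists name up to 3 genes of smallest p per comparison. Alternatives were RLE factors, library totals, no filter, a minimum count of 50, DESeq2 1.42.0, limma-voom (limma 3.58.1), the compared groups alone, 10 separate libraries, the replicate number as a block, offsets for length or length and GC content, a fold threshold of 1.2, and each library left out. A combination of length offsets without P7 cKO library 1 was chosen after seeing the data.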

Additional observations from a re-analysis of the deposited data

How the results depend on the processing

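Of 58 differences of the collagen genes named by the rule above, 1334 combinations of gene and alternative were followed. Of these, 1208 stayed past the threshold in the same direction, 126 kept their direction without passing, and 0 reversed. Members chosen after their values were seen are not in this count. Among them, Col9a1 between genotypes at P4 passed in 12 of 23 alternatives, and Col15a1 with age in cKO in 23 of 23. The number of collagen genes that passed moved more, and the number over all tested genes moved too. For cKO against WT at P4 (12 genes) the collagen count was 5 with offsets for length and GC content (794 of all 18419 genes). It was 4 against a fold of 1.2 (507 of all 18419 genes), and 0 to 19 with 1 library left out. The count was 0 with P4 WT library 1, P4 cKO library 2 or 3 left out, 5 without P4 WT library 2, 6 without P4 cKO library 1, and 19 without P7 cKO library 1. For cKO against WT at P7 (10 genes) it was 0 with the compared groups alone (none of 17832 genes) or with offsets for length and GC content (2 of 18419). It was 18 with 10 separate libraries (6905 of 17602 genes). With 1 library left out it was 4 to 15, the lowest without P7 cKO library 2 (961 of 18231 genes). For P7 against P4 in WT (24 genes) it ranged with 1 library left out from 12 (without P4 WT library 1) to 31, and was 33 with 10 separate libraries, and in cKO (28 genes) it ranged from 25 to 30 with 1 library left out. Over all genes, 7279 of 17602 passed with age in WT with 10 separate libraries. The interaction (0 genes by edgeR) gave 1 collagen gene with library totals (3 of 18419 genes) and 4 with no filter (431 of 21814). It gave 8 with DESeq2 (1611 of 21802) and 11 with 10 separate libraries (3105 of 17602). With 1 library left out it gave 0 to 8. With length offsets and without P7 cKO library 1, chosen after seeing the data, the counts were 21 at P4, 17 at P7, 34 with age in WT, 28 with age in cKO and 9 for the interaction. Over all 18314 genes they were 4057, 4365, 6164, 5688 and 1297, in the same order.

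Whether same-numbered replicates pair the samples was not settled. The correlation of their deviations from the group means exceeded 0.1 in 4 of 13 pairs (-0.19 to 0.34). Pairs with a P7 WT library, whose deviations are about sampling noise, gave -0.013 to 0.019 and cannot decide it. With the replicate block and 10 libraries, 15 collagen genes passed at P4, 26 at P7, 36 with age in WT, 31 with age in cKO and 16 for the interaction. Over all 17602 genes, 2732, 7438, 7812, 6714 and 4311 passed, in the same order. Library totals moved the median of all genes to -0.16 at P4, 0.19 at P7, -0.11 with age in WT, 0.18 with age in cKO and 0.33 for the interaction, and turned the sign of the collagen median at P4 (-0.06). At P7 that median turned to -0.09 with offsets for length and GC content. Depth limits Col19a1, Col10a1, Col8a1 and Col28a1, which had at most 150 reads in any library.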
